A study of Mus musculus with 12 samples.

Results

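The miR-15, miR-16, miR-195 and miR-497 family was followed in skin and squamous tumours of mice with and without TAp63. The members are the rows mmu-mir-15a-5p, mmu-mir-15b-5p, mmu-mir-16-5p, mmu-mir-195a-5p, mmu-mir-322-5p and mmu-mir-497-5p (written below without the species prefix, as miR-15a-5p and so on), 6 mature miRNAs taken by name from the 1251 miRNA rows of the deposited table. All 6 had a row and were above the table's floor in all 12 libraries, so all 6 were among the 544 miRNAs tested.

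By its title, the study asked about microRNAs under TAp63 and cutaneous squamous cell carcinoma (SCC). TAp63 is the isoform group of the p53-family transcription factor p63 with the N-terminal transactivation domain. All mice were of the C57Bl6 strain. The 4 groups were SCC of TAp63-/- mice (KO SCC, n = 4), SCC of Wild-type mice (WT SCC, n = 2), untreated dorsal skin of TAp63-/- mice (KO skin, n = 3) and untreated dorsal skin of Wild-type mice (WT skin, n = 3). Tumour donors were older than 35 weeks and had chronic ultraviolet radiation (UVR) of 2.5 kJ/m2, given 3 times a week, while skin donors were 4 weeks old. Tumour, UVR, age and the 2 series of library names therefore go together and cannot be told apart. The labels do not say that each library is a separate mouse, so p-values measure the spread between these libraries, which may be partly technical.

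miRNAs guide Argonaute proteins to messenger RNAs, mostly by pairing of the seed, the bases just after the first. Family members share that seed and are known to restrain the cell cycle and survival by repressing cyclins D and E, Cdk6, Chek1, Wee1 and Bcl2. The miR-15a and miR-16-1 locus is deleted in many human chronic lymphocytic leukaemias. miR-195 and miR-497 are known from resting and differentiated muscle and from the maturing heart, and miR-322 is the rodent counterpart of human miR-424.

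All 6 members were matched to RefSeq mature sequences (GRCm38.p6). They are shown because they make the family's shared and differing bases visible. Each is written 5′ to 3′ with bases 2 to 8, the seed, in capitals.
miR-15a-5p: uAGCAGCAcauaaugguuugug
miR-15b-5p: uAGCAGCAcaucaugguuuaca
miR-16-5p: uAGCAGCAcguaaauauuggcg
miR-195a-5p: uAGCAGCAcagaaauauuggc
miR-497-5p: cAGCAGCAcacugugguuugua
miR-322-5p: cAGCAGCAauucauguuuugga

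All 6 have the same seed. RefSeq names miR-497-5p as miR-497a-5p. miR-15a-5p and miR-15b-5p have 18 of 22 bases in common at the same positions, and differ by A12C, G20A, U21C and G22A (base of miR-15a-5p, position from 1 at the 5′ end, base of miR-15b-5p). miR-16-5p and miR-195a-5p differ at 2 of 21 shared positions, G10A and U11G. Reads of these closely related molecules could be split between them by the counting; the mismatches it allowed are not stated in the labels or the file. Other miRNAs of the reference with AGCAGC at bases 2 to 7 added little: of 5 with a row, miR-195b, miR-6342, miR-6353 and miR-6419 were at the floor in all 12 libraries. The fifth, miR-503-5p, was above it in 1 library.

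The members come from 4 genomic clusters (GENCODE M21, GRCm38, the assembly also called mm10). miR-15a (chr14:61632027-61632110) and miR-16-1 (chr14:61631880-61631972) lie 54 bases apart on the minus strand of the noncoding gene Dleu2, in an intron and in an annotated exon. miR-15b (chr3:69009772-69009835) and miR-16-2 (chr3:69009902-69009996) lie 66 bases apart in an intron of Smc4, which encodes a condensin subunit, on its strand. miR-497 (chr11:70234717-70234800) and miR-195a (chr11:70235042-70235135) lie 241 bases apart on the plus strand, with no annotated host gene on that strand. miR-322 (chrX:53054255-53054349, minus strand) lies 200 bases from miR-503, also with no overlapping gene. Mature miR-16-5p is the same molecule from both miR-16 hairpins, and its value cannot be assigned to 1 locus.

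Values are the authors' log2 values, quantile normalized between libraries, the lowest value being the log2 of 10 (the floor). Such values follow the rank of a miRNA in its library and keep no read counts, so the depth behind them is unknown. miR-16-5p took only 6 distinct values over the 12 libraries. Libraries had 370 to 545 miRNAs above the floor. All 7 keratinocyte and epithelial miRNAs checked were above the floor in every library. WT SCC replicate 2 stood apart from the other tumours in its muscle and melanocyte miRNAs, whose values are given below, and results that rest on it are given without it. In pieces of tissue, fewer cells of a type and less RNA per cell cannot be told apart.

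In tumours, the members did not move together (the plot of member levels shows every library). Of its 6 members, miR-195a-5p and miR-497-5p fell, miR-15b-5p rose, and the other 3 were not called, averaged over the genotypes with limma at an adjusted p under 0.05. These 3 calls are 50.0% of the members, against 41.9% of all tested miRNAs (20.4% higher and 21.5% lower), so the share called is near the background. The median log2 change was -0.01 over the members and 0.04 over all tested miRNAs. Median-ratio scaling moved the median of all tested miRNAs to 0.16, and the same 3 members were called on that scale.

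**Figure D1:**
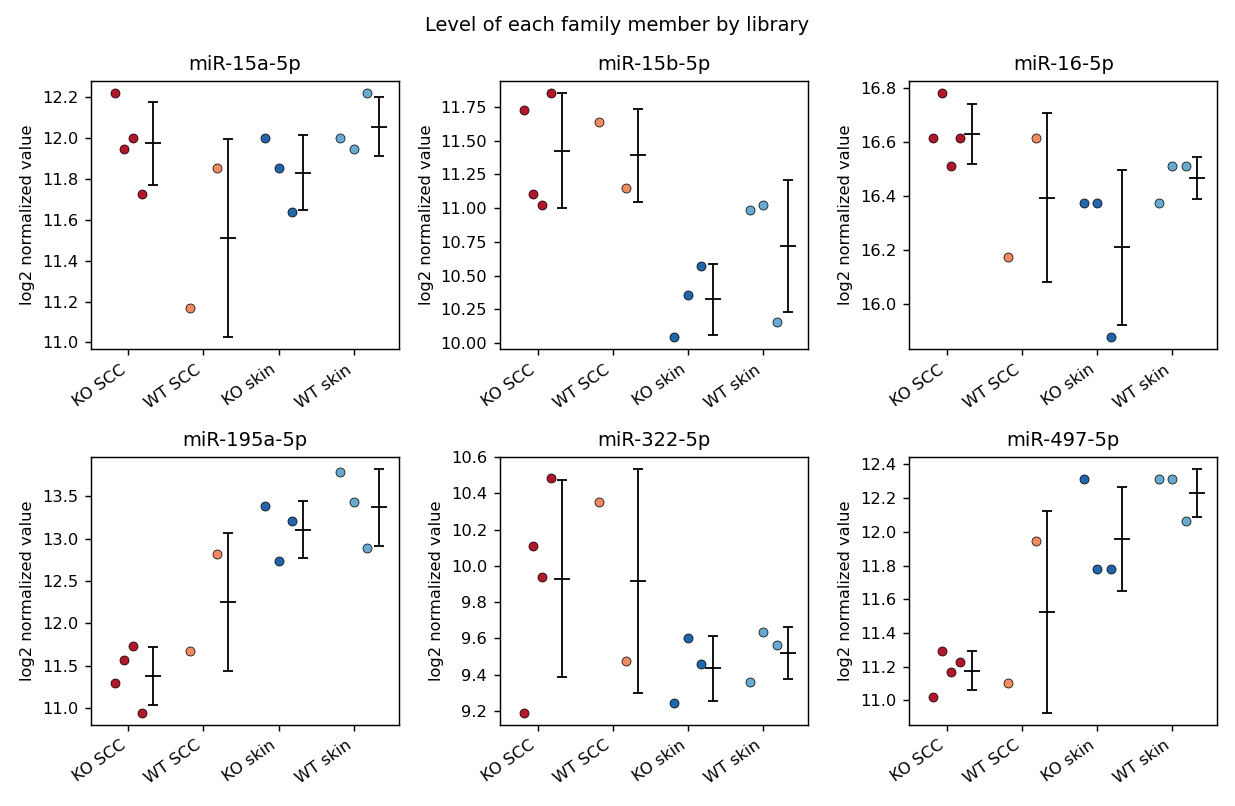
Level of each member (log2 normalized value) in every library of KO SCC, WT SCC, KO skin and WT skin. Points are libraries and bars are the mean ± SD; the vertical scales differ between panels. All 4 KO SCC libraries lie below all 6 skin libraries for miR-195a-5p and miR-497-5p.

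miR-195a-5p was measured at 11.29, 11.57, 11.73 and 10.94 in the KO SCC libraries and at 11.67 and 12.82 in WT SCC. It was at 13.38, 12.73 and 13.20 in KO skin and at 13.79, 13.43 and 12.89 in WT skin. In 5 of the 6 tumours it was below every skin library, and WT SCC replicate 2 lay within the skin range. The averaged change was -1.42 ± 0.26 (log2, SE), or 2.68-fold lower, with limma adjusted p = 0.00138. It passed in all 21 alternatives (adjusted p 0.000754 to 0.00966).

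miR-497-5p, from the same cluster, was measured at 11.02, 11.29, 11.17 and 11.23 in KO SCC and at 11.10 and 11.95 in WT SCC. It was at 12.31, 11.78 and 11.78 in KO skin and at 12.31, 12.31 and 12.07 in WT skin. The pattern was that of miR-195a-5p, with 5 of 6 tumours below all skin and WT SCC replicate 2 among the skin values. It fell by 0.74 ± 0.19 (SE), or 1.67-fold, with limma adjusted p = 0.00997. Without WT SCC replicate 1 the change was -0.53 (adjusted p = 0.0533). The study itself picked out miR-497-5p from these mice, so its decrease here is no independent evidence.

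The difference between these 2 neighbours was looked at after their values were seen and is given with no test. Within a library, miR-195a-5p minus miR-497-5p was 0.27, 0.28, 0.56 and -0.28 log2 units in KO SCC and 0.57 and 0.88 in WT SCC, against 1.07, 0.95 and 1.42 in KO skin and 1.48, 1.12 and 0.82 in WT skin. All 4 KO SCC libraries and WT SCC replicate 1 were below the whole skin range, and WT SCC replicate 2 was inside it. miR-195a-5p was the higher of the pair in 6 of 6 skin libraries and 5 of 6 tumours.

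The passenger arm of the miR-195a hairpin separated tumours from skin without overlap. The hairpin is printed because both of its arms were measured; the arms are in capitals, 5p first.
miR-195a hairpin: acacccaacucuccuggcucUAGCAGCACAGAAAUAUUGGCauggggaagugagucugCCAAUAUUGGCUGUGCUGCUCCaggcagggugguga

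miR-195a-3p stood at 5.01, 5.42, 4.93 and 4.97 in KO SCC and at 4.93 and 5.36 in WT SCC. It stood at 7.997, 6.53 and 7.05 in KO skin and at 7.69, 7.52 and 7.74 in WT skin. All 6 tumours were below all 6 skin libraries, at linear values of 30.4 to 42.7, not far above the floor of 10. Tumours and skin did not overlap, in either direction, in 22.1% of all tested miRNAs. It fell by 2.31 ± 0.28 (SE; limma adjusted p = 8.66e-05) averaged over the genotypes, and the change was -2.11 ± 0.36 in KO mice (0.00118) and -2.51 ± 0.42 in WT mice (0.00263). The averaged call passed in all 21 alternatives and each genotype's in all 22. WT SCC replicate 2, whose guide arm was within the skin range, had a passenger level among those of the other tumours. miR-497-3p, the passenger arm of the neighbouring hairpin, was at the floor in all 12 libraries.

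miR-15b-5p moved the other way. It was measured at 11.73, 11.10, 11.02 and 11.85 in KO SCC and at 11.64 and 11.15 in WT SCC, against 10.04, 10.35 and 10.57 in KO skin and 10.98, 11.02 and 10.15 in WT skin. In 5 of 6 tumours it was above all skin libraries, and KO SCC replicate 3 equalled the highest skin value. It rose by 0.89 ± 0.24 (SE), or 1.85-fold, with limma adjusted p = 0.0129. Without WT SCC replicate 1 the change was 0.77 (adjusted p = 0.0645).

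The other arm of that hairpin, miR-15b-3p, had the same direction. Its levels were 8.35, 7.96, 8.01 and 8.47 in KO SCC and 8.12 and 7.50 in WT SCC, against 6.08, 6.97 and 7.78 in KO skin and 7.26, 7.55 and 6.92 in WT skin. It was above all skin libraries in 5 of 6 tumours, and WT SCC replicate 2 was not. It rose by 0.91 ± 0.30 (SE; limma adjusted p = 0.0295). The call was lost in 6 of 21 alternatives, with adjusted p 0.0541 without KO skin replicate 1, 0.0531 without KO skin replicate 2, 0.0547 without WT skin replicate 1, 0.0696 without WT skin replicate 3, 0.126 without WT SCC replicate 1 and 0.0664 with library quality weights. The 5p minus 3p difference of miR-15b was 3.01 to 3.65 in tumours and 2.80 to 3.97 in skin, so the ranges overlapped.

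miR-15a-5p, a close sequence relative of miR-15b-5p, was not called. It was measured at 12.22, 11.95, 12.002 and 11.73 in KO SCC and at 11.17 and 11.85 in WT SCC, against 12.002, 11.85 and 11.64 in KO skin and 12.002, 11.95 and 12.22 in WT skin. Tumours and skin overlapped, with WT SCC replicate 1 alone below all skin libraries. The averaged change was -0.20 (95% interval -0.60 to 0.19; limma adjusted p = 0.399). Within a library, miR-15b-5p minus miR-15a-5p was -0.98 to 0.47 in tumours and -2.06 to -0.93 in skin, and miR-15a-5p was the higher of the pair in 4 of 6 tumours and 6 of 6 skin libraries. Its own passenger arm miR-15a-3p was likewise not called (0.25 ± 0.47, SE; adjusted p = 0.694).

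miR-16-5p, the dominant member, held ranks 13 to 18 of all miRNAs in tumours and 15 to 21 in skin. It was measured at 16.62, 16.78, 16.51 and 16.62 in KO SCC and at 16.17 and 16.62 in WT SCC, against 16.37, 16.37 and 15.88 in KO skin and 16.37, 16.51 and 16.51 in WT skin. In 4 of 6 tumours it was above all skin libraries, and KO SCC replicate 3 equalled the highest. The averaged change was 0.18 (95% interval -0.15 to 0.51; limma adjusted p = 0.383). Of the passenger arms of its 2 hairpins, miR-16-1-3p was above the floor in all 12 libraries (0.31 ± 0.22, SE; adjusted p = 0.292) and miR-16-2-3p in none.

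miR-322-5p, the least abundant member, varied more among tumours than in skin. Its levels were 9.19, 10.11, 9.94 and 10.48 in KO SCC and 10.35 and 9.48 in WT SCC, against 9.24, 9.60 and 9.46 in KO skin and 9.36, 9.63 and 9.56 in WT skin. 4 of 6 tumours were above all skin libraries and KO SCC replicate 1 was below them. The averaged change was 0.45 (95% interval -0.11 to 0.997; limma adjusted p = 0.185).

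The passenger arm of miR-322 was also measured. The hairpin is shown with both arms in capitals, 5p first.
miR-322 hairpin: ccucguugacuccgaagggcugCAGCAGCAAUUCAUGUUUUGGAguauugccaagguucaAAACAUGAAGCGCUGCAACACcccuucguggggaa

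miR-322-3p was measured at 5.12, 6.46, 6.997 and 5.92 in KO SCC and at 6.48 and 4.49 in WT SCC, against 6.77, 6.75 and 7.01 in KO skin and 7.69, 7.79 and 7.16 in WT skin. 5 of 6 tumours were below all skin libraries, and KO SCC replicate 3 was not. It fell by 1.39 ± 0.40 (SE; limma adjusted p = 0.0175) averaged over the genotypes. That value rests in part on WT SCC replicate 2: without it the change was -0.89 (adjusted p = 0.0886). In KO mice alone the change was -0.72 ± 0.52 (SE; limma adjusted p = 0.31), not called there or in any of its 22 alternatives. The 5p minus 3p difference was 4.07, 3.64, 2.94 and 4.57 in KO SCC and 3.87 and 4.99 in WT SCC, against 2.47, 2.85 and 2.45 in KO skin and 1.67, 1.85 and 2.40 in WT skin. Every tumour exceeded every skin library in this difference, which was singled out after its values were seen and is given with no test. The same held for miR-16-5p minus miR-195a-5p, at 3.793 to 5.673 in tumours and 2.586 to 3.645 in skin. The other within-library differences computed overlapped, and none was computed outside the family and its clusters. In tumours the 3p arm of miR-322 was low, at linear values of 22.5 to 128 against the floor of 10.

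**Figure D2:**
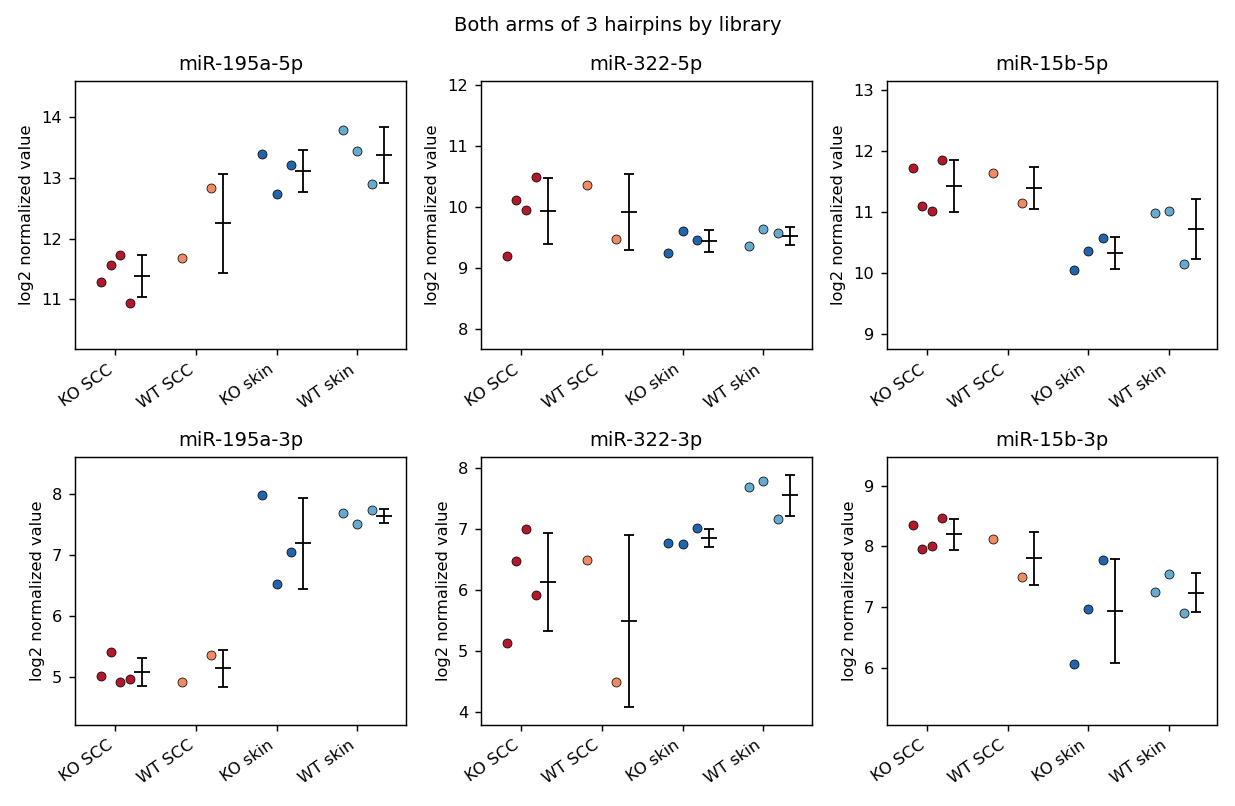
Levels (log2 normalized value) of the 5p arm (upper row) and the 3p arm (lower row) of miR-195a, miR-322 and miR-15b in every library, with mean ± SD. Each panel spans the same number of log2 units. Tumours are below all skin libraries in miR-195a-3p. For miR-322, 5 of 6 tumours are below all skin libraries in the 3p arm, and 4 of 6 are above them in the 5p arm, which was not called.

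**Figure D3:**
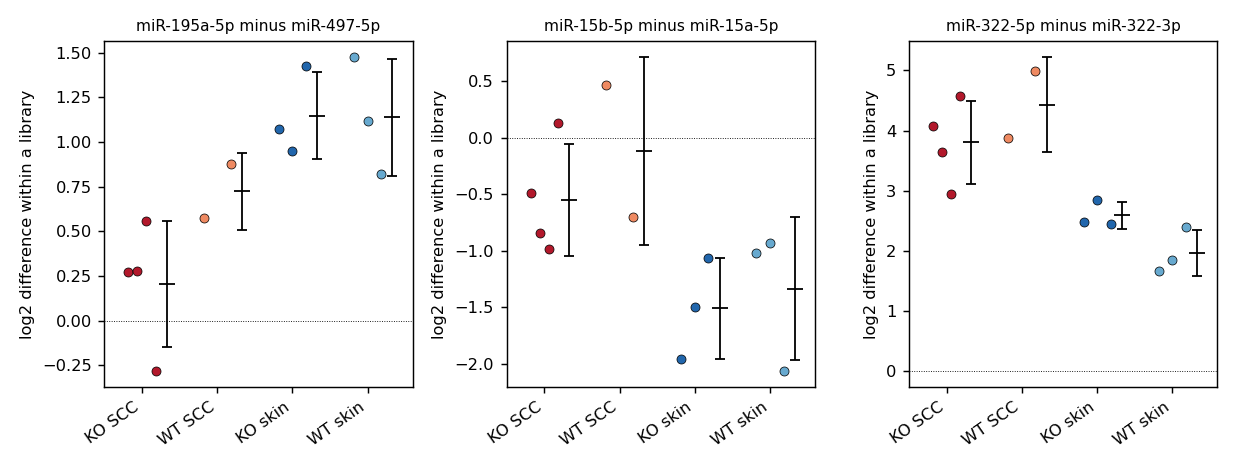
Difference in log2 value within each library between miR-195a-5p and miR-497-5p, between miR-15b-5p and miR-15a-5p, and between the arms of miR-322. Points are libraries, bars are the mean ± SD and dotted lines mark 0. The arms of miR-322 are farther apart in all 6 tumours than in any skin library. The difference between miR-16-5p and miR-195a-5p, not drawn, also did not overlap between tumours and skin.

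Of the 17 passenger arms and cluster partners with a row, 11 were tested, 1 rose and 2 fell in the averaged comparison, all named above, against 20.4% higher and 21.5% lower among all tested miRNAs. Their median change was 0.13, against 0.04 over all tested miRNAs. The miR-322 cluster also holds miR-351, miR-450a, miR-450b, miR-503 and miR-542. Of these, miR-450a-5p (0.18), miR-542-5p (-0.10), miR-542-3p (-0.42) and miR-503-3p (-0.185) were not called. miR-351-5p changed by 0.13 ± 0.30 (SE; adjusted p = 0.744), and miR-450b-5p by 0.90 ± 0.40 (adjusted p = 0.0979), with limma. miR-450b-5p exceeded all skin libraries in 5 of 6 tumours. The exception was WT SCC replicate 2, at 5.47 and inside the skin range of 5.42 to 6.36. The highest tumour was WT SCC replicate 1, at 7.88. In WT mice the change was 0.83, and ran from -0.377 to 2.04 over the 22 alternatives. The averaged value of miR-450b-5p and its missing call therefore rest in part on single WT tumours.

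Summed on the linear scale, the 6 members made up 1.42% to 2.07% of the total of a tumour library (median 1.87%) and 1.29% to 1.92% of a skin library (median 1.79%), so the ranges overlapped. The makeup of that sum differed more. miR-16-5p held 84.9% to 89.8% of it in tumours and 76.6% to 84.1% in skin, with no overlap. miR-195a-5p held 1.74% to 6.12% in tumours and 6.72% to 12.8% in skin, and miR-497-5p held 1.83% to 3.34% in tumours and 3.48% to 4.78% in skin, also without overlap. miR-15b-5p held 1.75% to 3.70% in tumours and 0.991% to 1.94% in skin. Shares of 1 sum are tied to each other, so smaller shares of some members mean larger shares of others. In level, tumours and skin overlapped for each of these members, and miR-16-5p was not called. Levels did not overlap in 22.1% of all tested miRNAs, and shares were not computed for other sets. miRNAs are of nearly equal length, but capture in library making differs by sequence, so these shares compare libraries better than miRNAs.

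**Figure D4:**
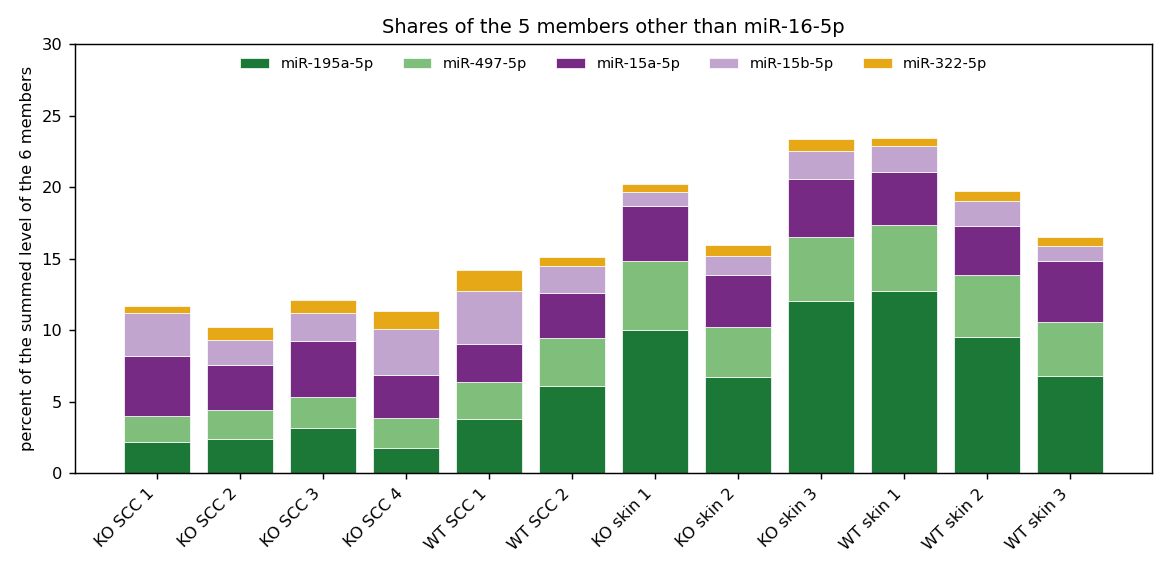
Percent of the summed linear level of the 6 members held by each member other than miR-16-5p, one stacked bar per library. The part of miR-195a-5p is 1.74% to 6.12% in tumours and 6.72% to 12.8% in skin.

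The order of levels within a library was fixed at both ends: miR-16-5p was the highest and miR-322-5p the lowest of the 6 in all 12 libraries. miR-195a-5p came next after miR-16-5p in 6 of 6 skin libraries. In the 4 KO SCC libraries that place was held by miR-15a-5p (3 libraries) or miR-15b-5p (1 library), and in both WT SCC libraries by miR-195a-5p. miR-15a-5p was above miR-195a-5p in 4 of 6 tumours and 0 of 6 skin libraries. miR-15a-5p and miR-497-5p, neighbours in the order, differed by -0.36 to 0.15 log2 units in skin, where either could be the higher.

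In TAp63-/- mice alone, the same 3 members were called as in the averaged comparison. With limma, miR-195a-5p fell by 1.72 ± 0.34 (SE; 3.30-fold, adjusted p = 0.0031). miR-497-5p fell less, with a change of -0.78 ± 0.25 (adjusted p = 0.0324). miR-15b-5p rose by 1.10 ± 0.31 (2.15-fold, adjusted p = 0.0182). This is 50.0% of the members called, against 34.2% of all tested miRNAs (16.0% higher and 18.2% lower). The call of miR-195a-5p passed in all 22 alternatives. That of miR-15b-5p was lost without KO skin replicate 1 (adjusted p = 0.0795) or 2 (0.0517), and that of miR-497-5p without KO skin replicate 1 (0.133) or 2 (0.0541) or KO SCC replicate 1 (0.0598). miR-16-5p changed by 0.42 ± 0.19 (adjusted p = 0.114) and was called only under median-ratio scaling (0.52, adjusted p = 0.0425). miR-322-5p (0.50 ± 0.32, adjusted p = 0.263) and miR-15a-5p (0.14 ± 0.23, adjusted p = 0.667) were not called.

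In Wild-type mice, where 2 tumours were available, none of the 6 members was called, against 18.2% of all tested miRNAs (8.82% higher and 9.38% lower). The values were -1.12 ± 0.40 (SE; limma adjusted p = 0.0809) for miR-195a-5p, -0.71 ± 0.30 (adjusted p = 0.126) for miR-497-5p, 0.67 ± 0.37 (0.251) for miR-15b-5p, -0.55 ± 0.28 (0.209) for miR-15a-5p, 0.40 ± 0.39 (0.542) for miR-322-5p and -0.07 ± 0.23 (0.925) for miR-16-5p. 2 members had an unadjusted p under 0.05, as had 167 of all tested miRNAs, and no other tool was run. Single libraries moved these values. Without WT SCC replicate 2, miR-195a-5p was at -1.70 (adjusted p = 0.0207) and miR-497-5p at -1.13 (0.0286), and without WT SCC replicate 1 they were at -0.55 (0.583) and -0.28 (0.729). miR-15a-5p was at -0.89 without WT SCC replicate 2 and at -0.20 without WT SCC replicate 1 (adjusted p 0.0619 and 0.851). miR-15b-5p was at 0.43 without WT SCC replicate 1 and at 0.39 without WT skin replicate 3 (0.729 and 0.559). For miR-322-3p the call of -2.06 ± 0.62 (limma adjusted p = 0.0398) held in 11 of 22 alternatives. It was lost without WT SCC replicate 2, where the change was -1.07. Leaving out any of the 6 skin libraries or KO SCC replicate 4 also lost it (adjusted p 0.0506 to 0.109). So did median-ratio scaling (0.0592), a filter of 1 library above the floor (0.0512) and a fit to the WT groups alone (0.176).

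The difference between SCC and skin was not shown to differ between the genotypes for any member. The interaction, KO tumour effect minus WT tumour effect, was 0.69 (95% interval -0.10 to 1.48) for miR-15a-5p, 0.49 (-0.17 to 1.15) for miR-16-5p, 0.43 (-0.64 to 1.497) for miR-15b-5p and 0.10 (-1.004 to 1.20) for miR-322-5p. It was -0.08 (-0.93 to 0.77) for miR-497-5p and -0.60 (-1.76 to 0.55) for miR-195a-5p. The limma adjusted p-values were 0.64 to 0.983, and 0% of all 544 tested miRNAs were called. At an unadjusted p under 0.05 there were 41 miRNAs, none of them a member.

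Loss of TAp63 in untreated skin gave no call for any member, and 0% of all tested miRNAs were called (31 at an unadjusted p under 0.05, none a member). All 6 point estimates were negative, with a median of -0.26 against 0 over all tested miRNAs. They ran from -0.40 (95% interval -1.13 to 0.33) for miR-15b-5p to -0.09 (-0.84 to 0.67) for miR-322-5p. The value of miR-497-5p was -0.27 (-0.86 to 0.31) and that of miR-195a-5p -0.26 (-1.05 to 0.53), all with limma adjusted p = 1. With library quality weights, 22 miRNAs were called in this comparison, and again no member. These intervals do not show that the genotypes have equal levels.

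Between tumours of the 2 genotypes, no member was called either, against 0.184% of all tested miRNAs (46 at an unadjusted p under 0.05). miR-195a-5p had the smallest p among the members, with 3 of 4 KO SCC libraries below both WT SCC libraries. The difference was -0.87 (95% interval -1.71 to -0.03; limma adjusted p = 0.538), and its unadjusted p was under 0.05. Leaving out WT SCC replicate 1 gave -1.44, and leaving out the other WT tumour gave -0.29. miR-15a-5p differed by 0.46 (-0.11 to 1.04), miR-16-5p by 0.24 (-0.24 to 0.72), miR-497-5p by -0.35 (-0.97 to 0.27), miR-15b-5p by 0.03 (-0.74 to 0.81) and miR-322-5p by 0.01 (-0.79 to 0.82), with adjusted p-values of 0.597 to 1.

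**Figure D5:**
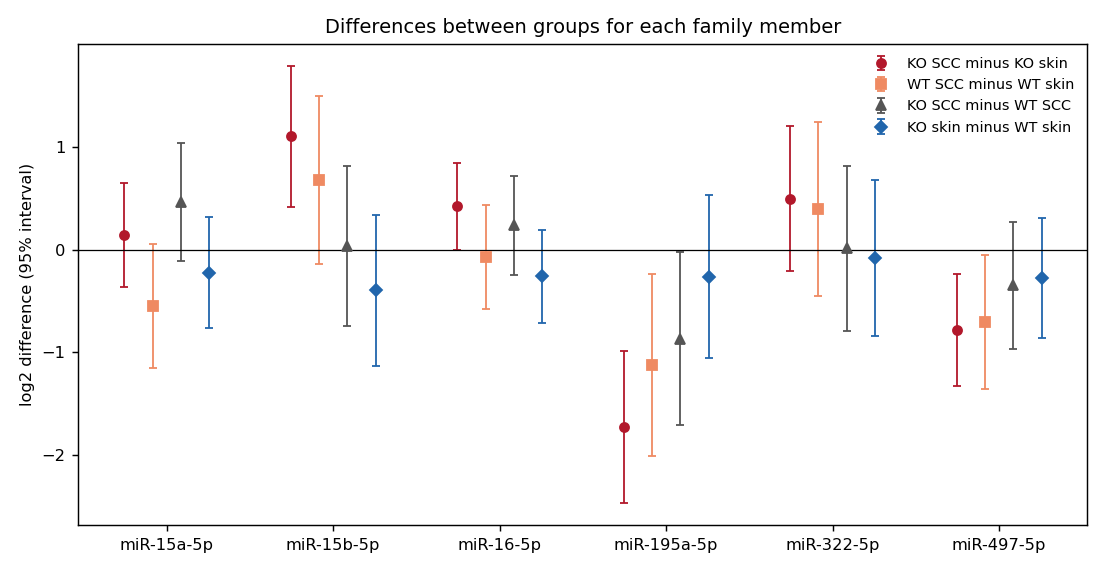
Log2 difference with its 95% interval (limma) for each member, as KO SCC minus KO skin, WT SCC minus WT skin, KO SCC minus WT SCC and KO skin minus WT skin; the line marks 0. After adjustment over 544 miRNAs, only 3 values of KO SCC minus KO skin were called, those of miR-15b-5p, miR-195a-5p and miR-497-5p.

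Levels of several cell type markers moved with these members, and their part in the changes was not tested. Among all tested miRNAs, 20.4% were called higher and 21.5% lower in the averaged comparison. Of the 5 striated muscle miRNAs listed, 4 fell in the averaged comparison, among them miR-206-3p (-6.20 ± 0.43, SE; limma adjusted p = 7.76e-06) and miR-1a-3p (-4.43 ± 0.44, adjusted p = 2.58e-05). The fifth, miR-499-5p, alone was at the floor in some libraries. It was not called in the averaged comparison (1.20 ± 0.55, adjusted p = 0.11), but in KO mice it rose by 1.99 ± 0.71, with a limma adjusted p that rounds to 0.05 and lies just under that threshold. Their summed linear level was 12023, 11922, 16069 and 4750 in KO SCC and 5914 and 31462 in WT SCC, against 66537 to 90052 in skin. WT SCC replicate 2, the tumour with most miR-195a-5p and miR-497-5p, had the highest muscle sum of the tumours. Both melanocyte miRNAs fell (miR-204-5p by 3.94 ± 0.39, adjusted p = 2.58e-05, and miR-211-5p by 3.00 ± 0.68, adjusted p = 0.00479), and their sum ran from 88.4 to 1703 in tumours, highest again in WT SCC replicate 2, and from 2326 to 6496 in skin.

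Of 4 fibroblast miRNAs, miR-199b-5p (-1.56 ± 0.23, SE; adjusted p = 0.000323) and miR-199a-5p (-1.14 ± 0.27, adjusted p = 0.00621) fell, with sums of 38531 to 67567 in tumours and 46211 to 68197 in skin. Of 4 leukocyte miRNAs, miR-142-3p (1.19 ± 0.30, adjusted p = 0.00889) and miR-223-3p (1.20 ± 0.33, adjusted p = 0.0125) rose, with sums of 15962 to 61587 in tumours and 18746 to 25786 in skin. Of 3 red cell miRNAs, miR-451a (2.61 ± 0.47, adjusted p = 0.00126) and miR-144-3p (2.14 ± 0.41, adjusted p = 0.00178) rose, with sums of 16981 to 96939 in tumours and 34962 to 74782 in skin. The third, miR-486-5p, was not called, and the median red cell sum was lower in tumours (34428) than in skin (43577). Of 2 endothelial miRNAs, miR-126-5p rose (0.50 ± 0.17, adjusted p = 0.0324), with sums of 59939 to 92530 in tumours and 47443 to 62967 in skin. Of 7 keratinocyte and epithelial miRNAs, miR-205-5p rose (1.55 ± 0.19, adjusted p = 0.000106) and miR-203-3p fell (-0.60 ± 0.21, adjusted p = 0.0416), with sums of 317849 to 634617 in tumours and 329740 to 456710 in skin. The miRNAs just named are from limma, averaged over the genotypes, and the part of these cell types in the members' changes was not tested. Their counts per list stand against 20.4% higher and 21.5% lower among all tested miRNAs.

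Across the 12 libraries, the members were unlike each other in pattern, apart from the miR-497 and miR-195a pair. Their Pearson correlation of log2 level was 0.942. miR-195a-5p and miR-497-5p each ran against miR-15b-5p, at -0.705 and -0.684. miR-15a-5p correlated with its cluster partner miR-16-5p at 0.544, and miR-15b-5p with miR-16-5p at 0.294. These values describe 12 libraries of 4 groups and carry the tumour and skin difference.

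The miRNAs most like each member were sought by that measure among 218 miRNAs, the upper 40% of those tested by mean level. For miR-195a-5p they were miR-152-3p (0.962), the muscle miRNA miR-133b-3p (0.949) and miR-497-5p. For miR-497-5p they were miR-145a-3p (0.956), miR-195a-5p and the melanocyte-linked miR-204-5p (0.930). miR-15b-5p ran closest to miR-18a-5p (0.898), miR-20a-5p (0.890) and miR-17-5p (0.884), all of the miR-17 cluster. miR-322-5p ran closest to miR-421-3p (0.942), miR-186-5p (0.875) and miR-455-5p (0.842). For miR-15a-5p the nearest were miR-744-5p (0.778), let-7d-5p (0.770) and let-7f-5p (0.727), and for miR-16-5p miR-30b-5p (0.731), miR-92a-1-5p (0.670) and miR-28c (0.667).

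Other miRNAs known to restrain the cell cycle were listed for comparison. Of 15 such miRNAs from the let-7, miR-26, miR-34 and miR-449 families, 1 rose and 1 fell in the averaged comparison with limma, against 20.4% and 21.5% of all tested miRNAs. They were miR-98-5p, of the let-7 family (0.80 ± 0.21, SE; adjusted p = 0.00952), and miR-26a-5p, which represses Ezh2 and cyclins (-0.65 ± 0.17, adjusted p = 0.0109). Their median change was 0.17, against 0.04 over all tested miRNAs. In KO mice 1 rose and none fell, against 16.0% higher and 18.2% lower among all tested miRNAs. In WT mice 1 rose and 1 fell, against 8.82% higher and 9.38% lower. No member of that list was called between the genotypes in skin or in tumours.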

How the data were processed

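Small RNA sequencing gave miRNA levels of frozen mouse skin and tumours; total RNA came from the miRVANA kit, per the labels' protocols. The authors deposited 1 table of log2 values, made on mm10 according to the submitters' processing notes. The aligner, the counter and the miRBase release were "not given in the sources used here". Judged by its values, the deposited table is quantile normalized with a floor at the log2 of 10, where 647 of its 1251 rows stay in all 12 libraries.

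Tests covered the 544 rows that exceed the floor in 2 or more libraries. They used limma 3.58.1 (R 4.3.3) with a mean per group, trended and robust moderated variances and 8 residual degrees of freedom; Benjamini-Hochberg adjustment ran over all tested miRNAs in each comparison. The design foresaw a pseudocount, which logged values do not need. Replicates carry accession order numbers and pair nothing. Named were the members, their arms, cluster partners and seed relatives, the 3 closest patterns of each, and up to 2 called miRNAs of every marker list. Members and lists were chosen with earlier results of these data known. Alternatives were median-ratio scaling, quantile normalization repeated on the tested miRNAs, library quality weights, and other variance settings, filters and pseudocounts. Further ones were leaving out the 5 most abundant miRNAs, a fit to the compared groups alone, and leaving out each library. The fit was also run on simulated tables with independent normal noise, without the floor and tied values of the deposited table. That run is used for no result here.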

Additional observations from a re-analysis of the deposited data

How the results depend on the processing

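Of 780 combinations of member, comparison and alternative, 752 kept both direction and call. The count of called members, 3 in SCC against skin averaged over the genotypes, was 1 to 3 when single libraries were left out, and 1 without WT SCC replicate 1. In KO SCC against KO skin it was also 3, with a range of 1 to 3, and 1 without KO skin replicate 1 or 2. In WT SCC against WT skin it was 0, with a range of 0 to 2, and 2 without WT SCC replicate 2. It was 0 throughout in the other comparisons. Signs changed only for 8 values that were not called. With library quality weights, miR-322-5p in KO against WT skin was 0.002 and the interaction of miR-497-5p 0.074. Median-ratio scaling gave 0.076 for miR-16-5p in WT SCC against WT skin. Leaving out single libraries gave ranges of -0.21 to 0.28 for miR-15b-5p, -0.42 to 0.45 for miR-322-5p and -0.77 to 0.075 for miR-497-5p in KO against WT SCC. In WT SCC against WT skin they were -0.29 to 0.15 for miR-16-5p and -0.041 to 0.83 for miR-322-5p, and in KO against WT skin -0.17 to 0.011 for miR-322-5p. For the interaction they were -0.34 to 0.54 for miR-322-5p and -0.50 to 0.35 for miR-497-5p. The cause of these shifts was not tested. No paired analysis was possible because the labels give the groups no shared replicate numbers. Without counts, the depth behind each value is unknown.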
